A study of Arabidopsis thaliana with 6 samples.

Results

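The cytosolic ribosomal protein (RP) genes described here are 60 Arabidopsis thaliana loci, taken by their locus names from a fixed list out of the 33602 gene models counted in each library. By the protein names given to them here, 19 encode proteins of the small (40S) subunit and 37 encode proteins of the large (60S) subunit. The other 4 encode the acidic P proteins of the stalk of the large subunit. They stand for 45 protein families and lie on chromosomes 1 to 3, and a further list of 168 cytosolic RP genes, made from the other loci of these families and the remaining families, was set beside them. The rule takes them by name and uses no measured value, but the list was drawn up with earlier results of these data known.

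The libraries were made from 10 pg, 25 pg, 50 pg, 75 pg, 100 pg and 5 ng of total RNA, 1 library per amount. All came from wild-type plants, and the study's methods describe them as dilutions of one RNA preparation from whole cotyledons of embryos 8 days after fertilization, dissected from siliques of several plants and pooled, whereas the labels give seed as the tissue. cDNA was made with a template-switching kit from poly(A) RNA without strand information. With 1 library per amount, no amount was tested against another, and every ratio between amounts below is a difference between 2 libraries.

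Between 22403342 and 51130296 read pairs were counted per library. The 5 ng library stood apart from the others: 8 seed storage protein genes had 32 to 509 pairs in each of the 5 libraries from 10 to 100 pg but took 59.0% of all pairs at 5 ng, and the normalization factors were 1.07 to 1.41 from 10 to 100 pg and 0.306 at 5 ng. The 5 ng library was also sequenced on another date, so amount, date and this difference in composition cannot be told apart. The storage protein share goes against the account of 1 RNA preparation diluted stepwise, and the files do not show whether the 5 ng library came from the same RNA, so every ratio to 5 ng below may compare 2 preparations. The 100 pg library stood apart in another way. Of the parsed pairs, 89.0% to 90.9% were counted from 10 to 75 pg, but 80.3% at 100 pg. The study's methods state that this library was sequenced on both dates and that only the later run was kept for analysis. The counts used here came from 38317268 parsed pairs at 100 pg. The study lists the same total as the size of this library. By these statements the counts hold the later run, made on the same date as those of the smaller amounts. The part of sequencing in the ratios over 100 pg was not tested. All 5 embryo regulators of a marker list had pairs in every library. Of 9 seed coat and endosperm genes, 5 or 6 had pairs in the pg libraries and 7 at 5 ng. Their summed level was 94.4 to 182.1 in the pg libraries and 153.2 at 5 ng on the scale defined below, but single genes differed. TT10, a seed coat laccase gene, had 0 pairs in every pg library and 2181 pairs at 5 ng (level 139.5). BAN was also highest at 5 ng (6.65). ZOU went the other way, with 26.9 to 121.5 in the pg libraries and 2.18 at 5 ng. So did ALE1, with 33.1 to 70.2 and 0.128, and TTG2, with 16.8 to 37.2 and 4.48. TT12, FIS2 and MEA had at most 0.39 in any library, and the endosperm gene FWA had 0 pairs in all 6. The part of these genes in the results was not tested.

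Cytosolic ribosomes translate the messenger RNAs of nuclear genes. In plants each RP is encoded by a small family of similar genes, the paralogs, of which 1 or a few usually give most of the transcript. RP genes are strongly expressed in growing and dividing tissue such as the embryo, and loss of single RP genes in Arabidopsis gives phenotypes that range from narrow pointed leaves to arrested embryos. Their upstream regions are known to be rich in short elements, the site II element that TCP transcription factors can bind and the telo-box.

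The 250 bases before the annotated start were read for each member from the RefSeq annotation of TAIR10.1. Site II was searched as TGGGCC or TGGGCT and the telo-box as AAACCCTAA, each on both strands. At least 1 site II match was found for 39 of the 60 members (65.0%), against 5264 of 27443 nuclear protein-coding genes (19.2%), and 2 or more for 26 members (43.3%), against 12% of all genes. The other cytosolic RP genes were similar, with 68.9%, and the plastid RP genes had 33.3%. In lists of ribosome assembly genes and of translation factors the shares were 72.4% and 40.7%. Of these 2 lists, 58.6% and 29.6% had 2 or more matches, so frequent site II matches were not particular to the cytosolic RP genes. The telo-box was found for 4 members (6.67%), against 2.61% of all genes. It was found for 11.4% of the other cytosolic RP genes, 10.3% of the ribosome assembly genes, 11.1% of the translation factors and 0.0% of the plastid RP genes. A match is a description of these letters, not of a bound site. Many of the members' windows also overlap a neighbouring gene, as that of RPL6B does with RPL6C. Only 6 of the 60 members had a gene model of the same length as the RefSeq transcript. The annotated start therefore need not be that of the counted model. On the per-kilobase scale defined below, the members without a site II match had a median level of 922.6, those with 1 match 738.8, and those with 2 or more 783.5, so the ranges overlapped throughout.

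The following pairs of paralogs are shown because the results turn on how much each copy contributes and on whether the copies can be told apart. The first pair is RPL23C (AT3G04400, chr3:1167000-1167249, plus strand), the most abundant member, and RPL23A (AT1G04480, chr1:1215675-1215924, plus strand), its minor copy. The next pair is RPS5A (AT3G11940, chr3:3779546-3779795, minus strand) and RPS5B (AT2G37270, chr2:15649472-15649721, minus strand). The last pair is RPL9C (AT1G33140, chr1:12022975-12023224, plus strand) and RPL9B (AT1G33120, chr1:12010629-12010878, plus strand), which lie close together on chromosome 1 and have coding sequences that are 99.1% identical. Capitals mark site II and telo-box matches, and coordinates are those of TAIR10.1.
RPL23C: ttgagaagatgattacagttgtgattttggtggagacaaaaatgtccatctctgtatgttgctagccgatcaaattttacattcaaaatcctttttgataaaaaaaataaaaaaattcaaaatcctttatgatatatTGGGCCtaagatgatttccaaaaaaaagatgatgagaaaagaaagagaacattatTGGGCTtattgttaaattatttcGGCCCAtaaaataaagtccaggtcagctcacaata
RPL23A: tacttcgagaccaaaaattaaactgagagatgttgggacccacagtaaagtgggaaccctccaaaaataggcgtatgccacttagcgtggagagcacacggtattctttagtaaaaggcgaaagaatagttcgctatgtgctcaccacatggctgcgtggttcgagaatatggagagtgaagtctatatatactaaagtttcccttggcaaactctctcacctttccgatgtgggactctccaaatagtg
RPS5A: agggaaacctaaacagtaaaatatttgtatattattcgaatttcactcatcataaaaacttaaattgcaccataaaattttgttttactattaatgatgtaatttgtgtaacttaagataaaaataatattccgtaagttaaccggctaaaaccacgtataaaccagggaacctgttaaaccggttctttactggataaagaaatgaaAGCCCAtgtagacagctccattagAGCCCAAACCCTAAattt
RPS5B: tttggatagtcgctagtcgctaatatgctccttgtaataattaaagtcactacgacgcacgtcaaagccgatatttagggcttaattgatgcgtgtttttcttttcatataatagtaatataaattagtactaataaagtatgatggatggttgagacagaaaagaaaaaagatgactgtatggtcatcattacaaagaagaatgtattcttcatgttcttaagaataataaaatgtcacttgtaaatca
RPL9C: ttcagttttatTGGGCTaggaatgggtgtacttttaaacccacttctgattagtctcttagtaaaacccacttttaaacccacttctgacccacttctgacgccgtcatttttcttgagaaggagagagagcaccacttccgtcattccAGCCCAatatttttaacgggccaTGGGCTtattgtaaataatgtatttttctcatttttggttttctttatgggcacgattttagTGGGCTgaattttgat
RPL9B: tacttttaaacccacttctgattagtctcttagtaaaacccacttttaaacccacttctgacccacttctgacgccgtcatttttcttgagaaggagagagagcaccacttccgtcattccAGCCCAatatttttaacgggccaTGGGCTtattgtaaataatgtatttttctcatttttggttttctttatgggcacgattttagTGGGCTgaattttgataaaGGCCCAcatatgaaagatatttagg
RPL23C held 3 site II matches and RPL23A none. RPS5A held 2 site II matches and 1 telo-box, and RPS5B neither. RPL9C and RPL9B held 4 site II matches each, most of them in a stretch that both upstream regions share.

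All 60 members had read pairs in all 6 libraries. Their levels are given as counts of pairs scaled to library size as CPM and with TMM factors (normalized CPM). Together the members held 6.27%, 6.25%, 6.61%, 6.07% and 5.05% of all pairs at 10, 25, 50, 75 and 100 pg, and 0.707% at 5 ng. As normalized CPM the sums were 58528, 51973, 49770.1, 44927.5 and 35739.5 in the same order, and 23129 at 5 ng. Genes of the 60S subunit took most of these pairs, between 68.2% and 72.3% in every library, those of the 40S subunit took 23% to 26.6% and the P stalk genes 4.75% to 5.73%. Among the 100 genes with the most pairs, 22 to 25 were members in each pg library and 0 at 5 ng.

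To compare genes, levels were divided by the length of the gene model in kilobases and averaged over the 5 libraries from 10 to 100 pg. The median member had 820.7 normalized CPM per kb, against 18.6 for all 10498 genes with a mean of at least 10 normalized CPM, and 54 of the 60 members were at or above the 95th percentile of those genes. In the 60S subunit the highest were RPL23C, with 2619 per kb, and RPL27aC (AT1G70600), with 2386 per kb. RPL23 sits on the face of the large subunit that meets the small one, and a mutation in RPL27aC is known to alter shoot and gynoecium growth. The lowest were RPL3B (AT1G61580), with 65.2 per kb, and RPL35aA (AT1G07070), with 83.7 per kb. In the 40S subunit RPS24A (AT3G04920) had 1265 per kb and RPS5A had 1226 per kb, a gene known as MINUTE-LIKE whose promoter is often used to drive transgenes in embryos. At the other end were RPSaB (AT3G04770), with 16.9 per kb, and RPS2A (AT1G58380), with 100.3 per kb. Of the P stalk genes, whose proteins recruit elongation factors to the ribosome, RPP1A (AT1G01100) was highest, with 1205 per kb, and RPP0A (AT2G40010) lowest, with 7.79 per kb.

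**Figure D1:**
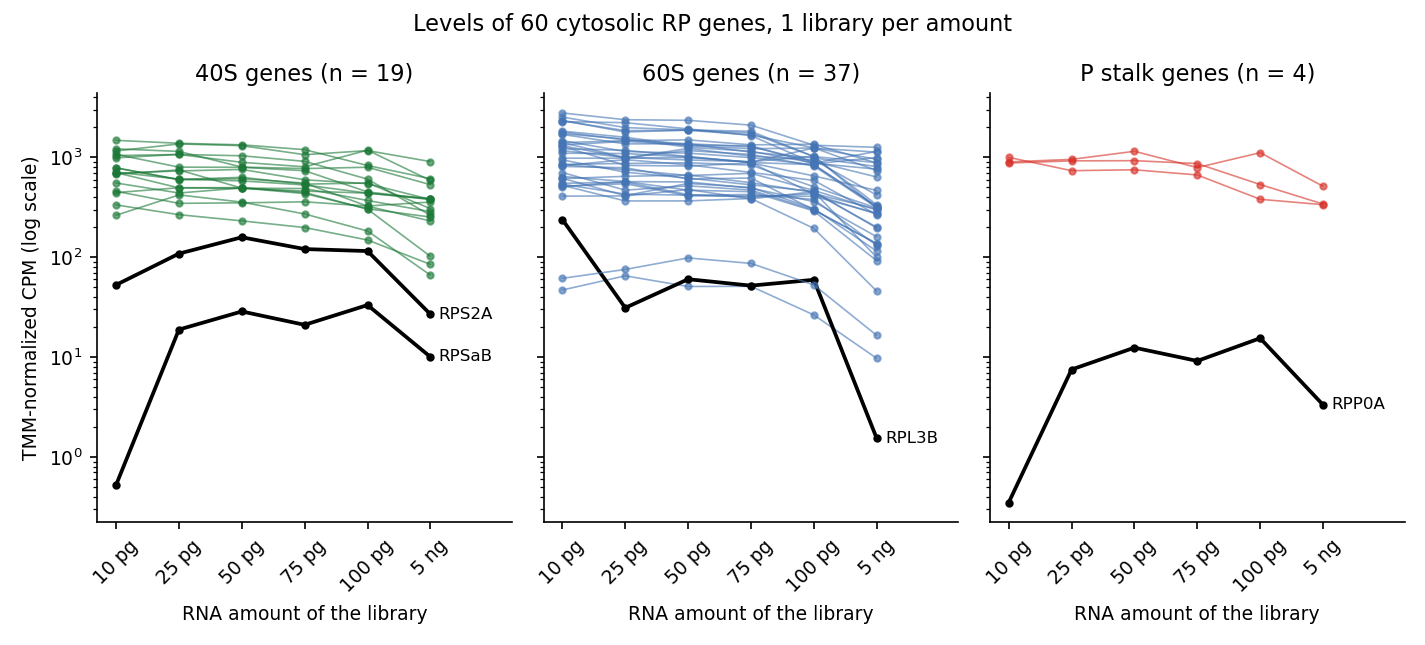
Normalized CPM (log scale) of each of the 60 members at each RNA amount, 1 line per gene, in panels for 40S, 60S and P stalk genes, with 4 low genes in black. In every pg library 55 of the 60 members lay at or above 100 normalized CPM. RPSaB and RPP0A were at 0.52 and 0.35 at 10 pg, where RPL3B was at 238.6.

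RPL23C had 2788, 2387, 2353, 2106 and 1325 normalized CPM at 10, 25, 50, 75 and 100 pg, and 1262 at 5 ng. It had the most pairs of any member in all libraries except 100 pg, where RPL19A (AT1G02780) did. RPL19A, another protein of the large subunit, had 1407, 1473, 1499, 1337 and 1354 from 10 to 100 pg, and 880.0 at 5 ng. The level of RPL19A thus varied little over the pg libraries, whereas that of RPL23C was lowest at 100 pg.

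The same contrast ran through the members. Relative to the 100 pg library, most members stood higher in each smaller amount, with median log2 ratios of (normalized CPM + 1) of 0.73 (10 pg), 0.53 (25 pg), 0.52 (50 pg) and 0.39 (75 pg). Over all genes with at least 10 normalized CPM in either library the medians were 0.20, 0.09, 0.04 and −0.06. Of the 60 members, 53 were above their level in the 100 pg library when 10 pg were used, 51 with 25 pg, 54 with 50 pg and 46 with 75 pg. Of all genes compared, 6536 of 11904 were above it with 10 pg, 6366 of 11973 with 25 pg, 6087 of 11849 with 50 pg and 5485 of 11612 with 75 pg. With library totals in place of TMM factors the median of the members in 10 pg over 100 pg was 0.33 and that of all genes −0.19, so the members stayed above all genes by 0.52, against 0.53 with TMM factors.

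A 2-fold difference was counted without a test. In 10 pg over 100 pg, 16 of 60 members were at least 2-fold higher, where 28.7% of all genes were, and 3 were at least 2-fold lower, where 28.1% were. In 25 pg over 100 pg, 6 were higher (all genes 20.7%) and 0 lower (22.1%). In 50 pg over 100 pg, 3 were higher (15.1%) and 0 lower (17.2%). In 75 pg over 100 pg, 2 were higher (11.6%) and 0 lower (13.7%). With library totals 4 members were at least 2-fold higher in 10 pg over 100 pg, where 19.7% of all genes were. Under both scalings the members higher at 10 pg were thus no larger a share than that of all genes. In 25 pg over 100 pg, library totals gave 3 members lower (26.1%) and a pseudocount of 0.1 gave 1 (22.9%). In 75 pg over 100 pg, library totals gave 1 member higher (10.7%) and single reads 0 (10.2%). These 4 ratios share the 100 pg library. Against the mean of 50 and 75 pg, an alternative added after the data were seen, the median was 0.34 for the members and 0.24 for all genes with 10 pg, and 0.10 and 0.14 with 25 pg. There 1 member was at least 2-fold higher at 10 pg (all genes 25.6%) and 0 at 25 pg (17.8%). The members' distance from all genes was thus smaller against these 2 libraries than against 100 pg.

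**Figure D2:**
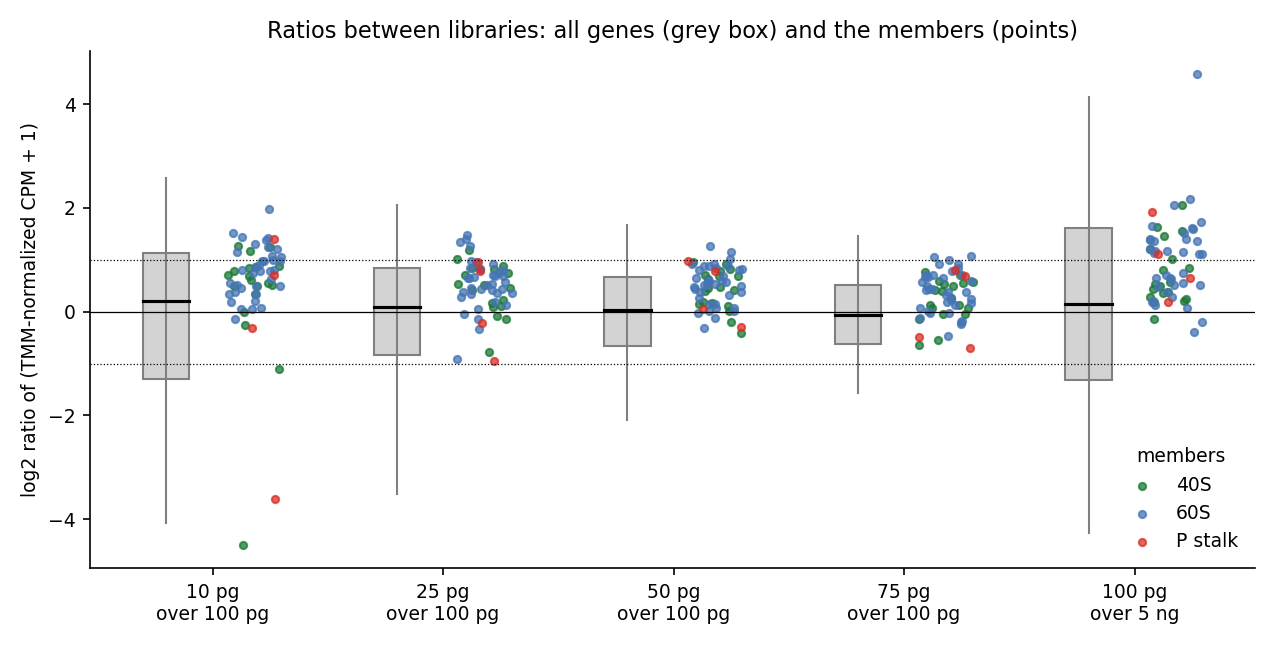
Log2 ratio of (normalized CPM + 1) for 5 pairs of libraries. Grey boxes give the quartiles and median of all genes compared, grey lines the 5th to 95th percentile, points the 60 members by class, and dotted lines a 2-fold difference. The members lay mostly between 0 and 1, with medians of 0.73, 0.53, 0.52, 0.39 and 0.78 from left to right.

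The 5 largest ratios of 10 pg over 100 pg belonged to RPL3B (1.99), RPL35aB (1.52), RPL34A (1.44), RPL23A (1.43) and RPP1A (1.39). RPL35aB (AT1G41880) had 1220.0, 1181, 1021, 892.4 and 425.4 normalized CPM from 10 to 100 pg, and 270.8 at 5 ng. RPL34A (AT1G26880) had 812.5, 788.4, 607.1, 622.1 and 298.6, and 137.4 at 5 ng. RPP1A had 1001, 736.7, 752.1, 667.5 and 380.8, and 336.2 at 5 ng. In these 3 genes, which encode proteins of the large subunit or its stalk, the 100 pg library was the lowest of the pg libraries, and apart from RPL3B the genes of this group have short models, of 587 to 729 bases. In 25 pg over 100 pg the largest ratios were those of RPL35aB (1.47), RPL34A (1.40) and RPL10A (1.35). RPL10A (AT1G14320), known in Arabidopsis as a partner of the receptor kinase NIK1 in antiviral signalling, had 2284, 2229, 1932, 1657 and 874.3 normalized CPM from 10 to 100 pg, and 763.5 at 5 ng.

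Models of over 1000 bases varied. The smallest ratios among members with at least 100 normalized CPM throughout the pg libraries were those of RPP0B and RPS2C, while RPL7C (AT2G44120, 1220 bases) had a ratio of 1.24 in 10 pg over 100 pg and the longest member, RPL4A (AT3G09630, 1560 bases), had 0.51, both picked after their values were seen. RPS2C (AT2G41840) had 991.7, 1071, 893.2, 805.5 and 1182 normalized CPM from 10 to 100 pg, and 587.5 at 5 ng. RPP0B (AT3G09200), the main gene of the stalk base protein P0, had 901.8, 955.9, 1152, 791.1 and 1116, and 514.2 at 5 ng. RPL3A (AT1G43170), a protein next to the peptidyl transferase centre, had 1314, 988.3, 999.2, 897.1 and 1242, and 958.5 at 5 ng. For RPS2C the 100 pg library was the highest of the pg libraries, and for RPP0B and RPL3A the next to highest. Their 10 pg over 100 pg ratios were −0.25 for RPS2C, −0.31 for RPP0B and 0.08 for RPL3A.

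Across the 60 members, Spearman's correlation of model length with the log2 ratio was −0.56 for 10 pg over 100 pg, −0.71 for 25 pg, −0.71 for 50 pg and −0.71 for 75 pg, and across all genes compared it was −0.31, −0.35, −0.41 and −0.46. These are descriptions across genes that share their libraries. By length class the members followed all genes: in 10 pg over 100 pg the 16 members with models of 500 to 750 bases had a median of 1.03 and all 953 genes of that length 1.16, the 25 members of 750 to 1000 bases had 0.74 and all genes 0.77, and the 19 members of 1000 to 1600 bases had 0.19 and all genes 0.21. In 75 pg over 100 pg the medians were 0.65 and 0.74, 0.43 and 0.39, and −0.04 and −0.02 for the same classes. Of the counted reads of the members, 96.1% to 97.6% were in counted pairs from 10 to 75 pg and 89.9% at 100 pg, and of those of all genes 94.6% to 95.8% from 10 to 75 pg and 85.9% at 100 pg. The part of these differences in the length relation was not tested.

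**Figure D3:**
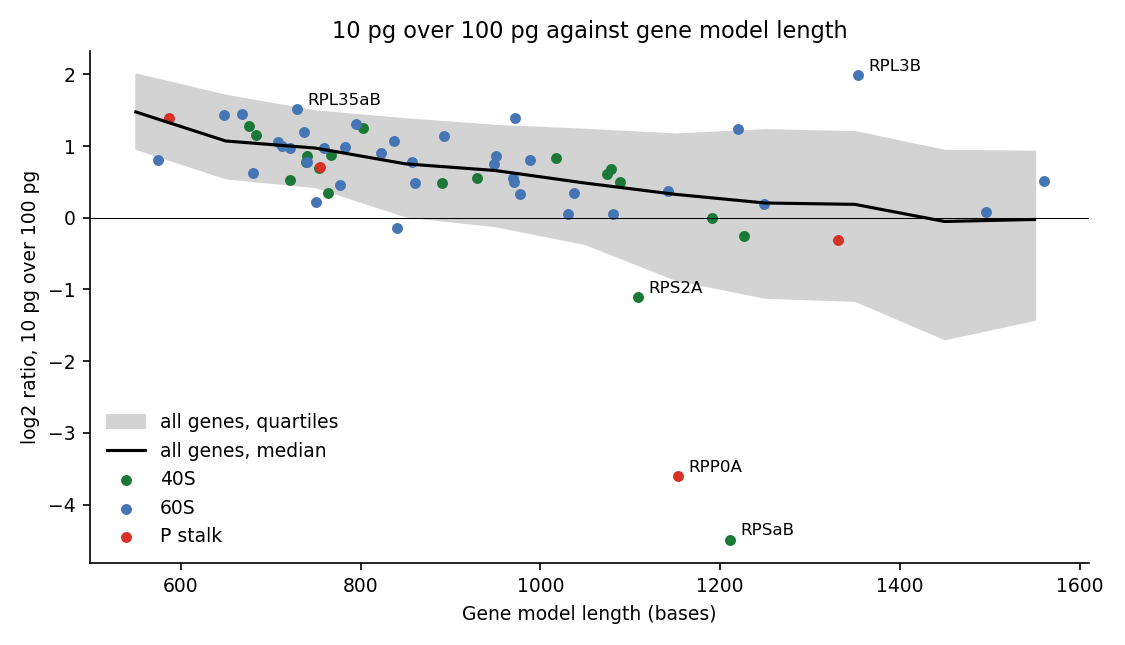
Log2 ratio of 10 pg over 100 pg against gene model length in bases, with the median and quartiles of all genes in classes of 100 bases and the 60 members as points. Most members follow the line of all genes downwards, from about 1 at 700 bases to about 0.2 at 1200 bases, and vary above that length. RPSaB, RPP0A and RPS2A lie below the line and RPL3B above it, as does RPL7C, with 1.24 at 1220 bases.

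The largest exceptions were low members, each the minor paralog of its protein. RPSaB encodes a copy of the 40S protein SA, known from animals as the laminin receptor precursor. It had 0.52, 18.9, 28.6, 21.05 and 33.2 normalized CPM from 10 to 100 pg, and 10.0 at 5 ng, that is 15 pairs at 10 pg against 637 to 1446 in the other pg libraries. RPP0A, a copy of P0, had 0.35, 7.51, 12.4, 9.15 and 15.5, and 3.33 at 5 ng, with 10 pairs at 10 pg. Both were close to lost at 10 pg and present in all other libraries, with log2 ratios of 10 pg over 100 pg of −4.49 for RPSaB and −3.61 for RPP0A. The size of these ratios depends on the pseudocount: with 0.1 they were −5.74 and −5.11, and with 10 they were −2.04 and −1.30.

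RPS2A, a copy of a protein at the mRNA entry of the 40S subunit, had 52.9, 108.7, 158.6, 120.8 and 115.4 normalized CPM from 10 to 100 pg, and 26.9 at 5 ng, a ratio of −1.11 for 10 pg over 100 pg. RPL3B went the other way at 10 pg: it had 238.6, 31.1, 60.3, 52.0 and 59.5, and 1.54 at 5 ng, where it had 24 pairs. Among the pg libraries, 10 pg was thus the highest for RPL3B and the lowest for the other 3 genes. RPL3B had ratios of 1.99 for 10 pg and −0.91 for 25 pg over 100 pg, and the smallest 25 pg ratios were those of RPP0A (−0.95), RPL3B and RPSaB (−0.78).

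Jumps of at least 4-fold downwards were common among genes of that level and upwards ones were rare. Of the 5 members with a mean of 10 to 100 normalized CPM over 50, 75 and 100 pg, 2 were at least 4-fold lower at 10 pg and 1 was at least 4-fold higher, and of the 9213 genes in that range 22.9% were lower and 2.38% higher. Of the 55 members with a mean of 100 to 5000, 0 were lower and 0 higher, where 0.246% and 0.0% of 1220 genes were. This rule was set after the data were seen.

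The spread over the 5 pg libraries gave the same picture. The standard deviation of log2(normalized CPM + 1) had a median of 0.329 over the members and 0.726 over the 10498 genes with a mean of at least 10. Genes as abundant as most members were about as even. The median was 0.324 for the 23 members with a mean of 500 to 1000 and 0.321 for all 129 genes there. It was 0.297 for the 18 members with a mean of 1000 to 5000, against 0.327 for all 75 genes. The 129 and 75 genes include these members, so part of the likeness is built in. The smallest value was that of RPL19A, 0.0723, and the largest those of RPSaB, 1.85, RPP0A, 1.44, and RPL3B, 1.08. Without the 100 pg library the median of the members was 0.214, and that of all genes 0.717.

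**Figure D4:**
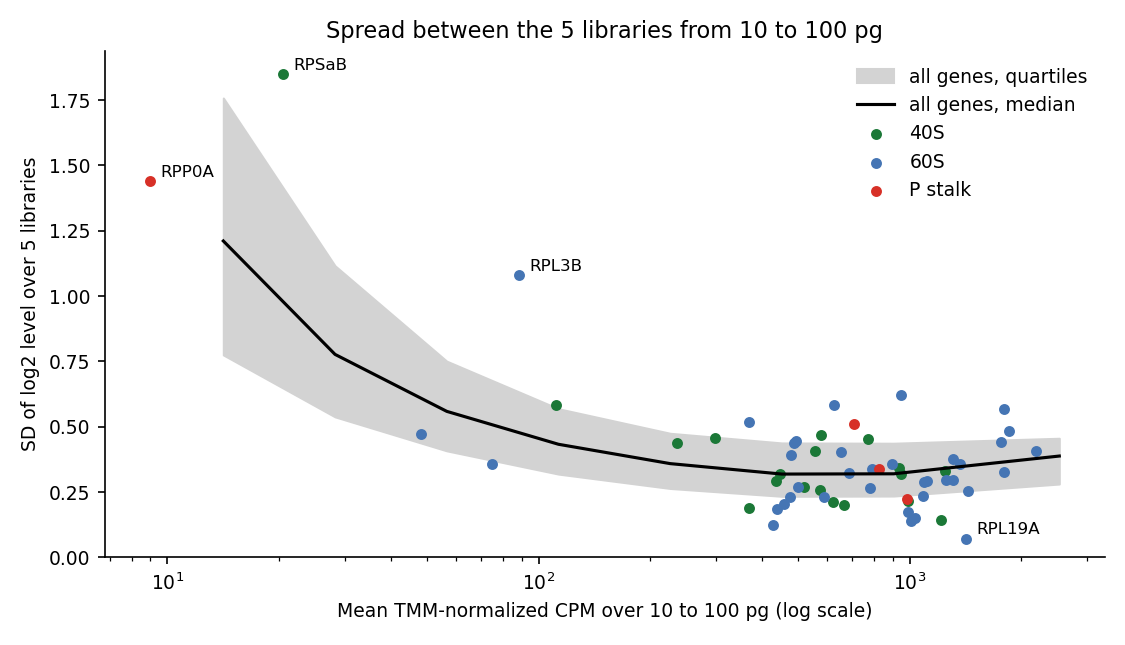
Standard deviation of log2(normalized CPM + 1) over the 5 libraries from 10 to 100 pg against the mean level (log scale), with the median and quartiles of all genes by level and the 60 members as points. Most members lie within the band of genes of the same level. RPSaB, RPP0A and RPL3B are the 3 highest, with 1.85, 1.44 and 1.08.

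A slope on log2 of the RNA amount was fitted to the pair counts of the 5 pg libraries with edgeR's quasi-likelihood test. With Benjamini-Hochberg adjusted p under 0.05, 0 of the 60 members and 0 of 17366 genes (0.0%) were called. The smallest adjusted p of a member was 0.312. At an unadjusted p under 0.05 there were 25 members and 2388 genes. The slope was negative in 52 of 60 members, with a median of −0.16 on the log2 scale per doubling of the RNA amount, against 0.08 over all genes. DESeq2 called 20 members, 1 of them with a positive slope, and 9.97% of all genes. With 5 ng added, edgeR called 8 members, 0 with a positive slope, and 4.05% of all genes. Such p-values measure only how single libraries scatter around a line.

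The share of each paralog was taken of the summed pairs of its family. Of the 14 families with more than 1 member among the 60, 12 had the same largest of the listed members in all 6 libraries. Copies outside the 60 can hold more pairs: RPL35aB was the largest of all L35a copies in 5 of the 6 libraries. The exceptions were L6, where RPL6A (AT1G18540) led in the pg libraries with 41.1% to 50.2% and RPL6B (AT1G74050) at 5 ng with 35.9%, and S18, where RPS18B (AT1G34030) led by 37.5% to 36.6% over RPS18A (AT1G22780) at 25 pg. RPS18A held more than RPS18B in the other libraries, though at 10 pg, with 32.9% and 32.3%, a copy outside the 60 had more pairs than either. Loss of RPS18A is known to give pointed first leaves. All intervals on shares are exact Clopper-Pearson 95% intervals and cover counting error only.

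RPL23C held 71.8%, 75.1%, 72.7%, 70.4% and 72.4% of the pairs of the L23 family from 10 to 100 pg, and 82.7% at 5 ng. RPL23A held 13.5%, 11.5%, 11.3%, 13% and 10.6%, and 3.0% (2.79% to 3.23%) at 5 ng. The pg libraries were close to each other and the 5 ng library lay outside their range. RPS5A held 76.9%, 73.6%, 72.9%, 72.9% and 73.3% of the S5 family, and 85.7% (85.0% to 86.3%) at 5 ng, the rest being RPS5B. RPL17A (AT1G27400) held 19.4%, 23.1%, 25.8%, 25.4% and 31.4% of the L17 family, and 11% at 5 ng, with RPL17B (AT1G67430) as the rest. RPL21B (AT1G09690) held 48.1% to 50.4% of the L21 family in the pg libraries and 72.4% at 5 ng.

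In the 3 families with the jumps, the share followed the minor copy. RPL3B held 15.4% (15% to 15.7%) of the L3 family at 10 pg, 3.06%, 5.69%, 5.48% and 4.57% from 25 to 100 pg, and 0.160% at 5 ng, the rest being RPL3A. RPSaB held 0.0451% (0.0252% to 0.0743%) of the Sa family at 10 pg, 1.36%, 2.14%, 1.94% and 2.76% from 25 to 100 pg, and 1.09% at 5 ng, with RPSaA (AT1G72370) as the rest. RPP0A held 0.0369% (0.0177% to 0.0678%) of the P0 family at 10 pg, 0.696% to 1.25% from 25 to 100 pg, and 0.611% at 5 ng, and RPP0B held 86.8% to 95.1% throughout. The main copies RPL3A, RPSaA and RPP0B carried 84.6% or more of the pairs of their families in every library. The other minor copies under the rule stayed low throughout, RPS2A with 4.26% to 14.2% of the S2 family and RPL35aA with 1.60% to 2.71% of the L35a family.

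**Figure D5:**
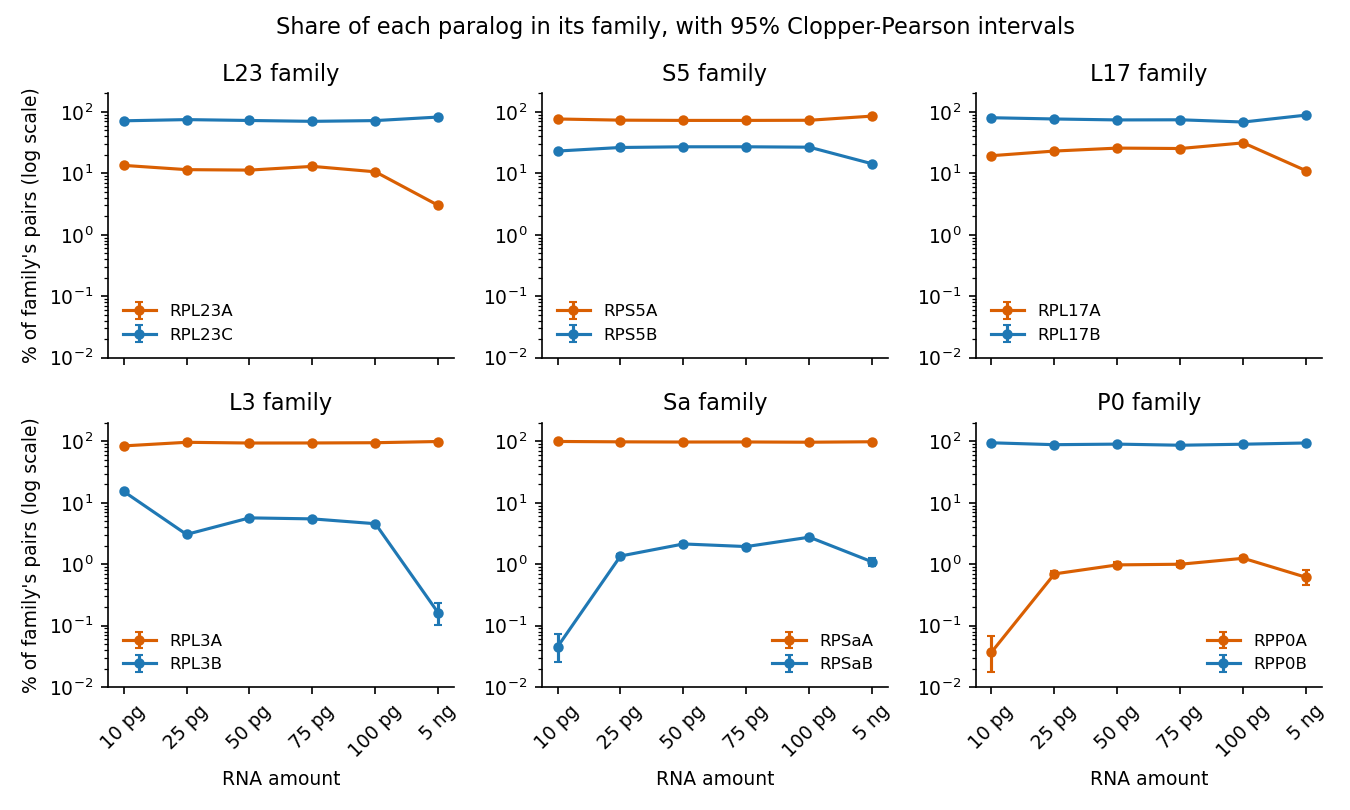
Share of each of 2 paralogs in the pairs of its family (percent, log scale) at each RNA amount, with 95% Clopper-Pearson intervals, for 6 families. The L23 and S5 shares are close over the pg libraries and lie elsewhere at 5 ng, while RPL17A ranges from 19.4% to 31.4% over the pg libraries and is at 11% at 5 ng. RPSaB and RPP0A are at 0.0451% and 0.0369% at 10 pg, and RPL3B is at 15.4% there and at 0.160% at 5 ng.

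The other P stalk gene, RPP2B (AT2G27710), had 879.1, 924.0, 928.1, 867.7 and 535.3 normalized CPM from 10 to 100 pg, and 341.4 at 5 ng. It held 52.2% to 56.6% of its family and RPP1A held 37.3% to 49.9% of the P1 family. The level of RPP2B was thus lower at 100 pg than in the other pg libraries, while its share differed by 4.4 points over all libraries.

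Shares rest on reads that can be assigned to 1 copy, since pairs that matched several genes equally well had been removed by the authors. Of the coding sequence of RPL9B and of RPL9C, 73.87% of all windows of 100 bases were identical in the other copy. For RPS17A (AT2G04390) 62.08% were shared with RPS17B, for RPS26A (AT2G40510) 17.49% and for RPS2A 17.06% with their copies. The levels of these 5 genes are therefore uncertain. RPL9C held 43.0% to 47.0% of the L9 family in the pg libraries and 60.6% at 5 ng, and RPL9B 26.6% to 37.1% throughout. RPL3B, RPSaB and RPP0A shared no window of that length with any listed paralog.

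In 100 pg over 5 ng the median log2 ratio was 0.78 for the members and 0.15 for all genes compared. Above 0 were 57 of 60 members, and 6736 of the 12802 genes compared. At least 2-fold higher at 100 pg were 28 of 60 members, where 34.5% of all genes were, and at least 2-fold lower 0, where 29.9% were. Fewer cells of a type and less RNA per cell cannot be told apart in such bulk RNA. The size of this ratio depends on the scaling. The storage protein genes fill most of the 5 ng library, but leaving them out of the totals did not bring the median down to that with TMM factors. With library totals the median of the members was 2.97 and that of all genes 2.21, with DESeq2 size factors 0.56 and −0.06, and with totals that left out the storage protein genes 1.70 and 1.03. The members at least 2-fold higher were 60 with library totals (all genes 71.4%), 18 with DESeq2 size factors (31.1%) and 56 with totals that left out the storage protein genes (50.7%). The members stood 0.62 to 0.75 above all genes under each. Within classes of model length the distance was larger. With TMM factors the medians at 500 to 750 bases were 0.73 for the members and −0.60 for all genes. They were 0.65 and −0.56 at 750 to 1000 bases, and 1.12 and −0.09 at 1000 to 1600 bases. By subunit class the median was 0.53 for 40S genes, 1.12 for 60S genes and 0.88 for the P stalk.

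The 5 largest ratios of 100 pg over 5 ng all belonged to minor copies of their families, RPL3B (4.58), RPL17A (2.17), RPL23A (2.06), RPS2A (2.06) and RPP0A (1.93). RPL17A had 409.6, 411.5, 477.0, 385.2 and 453.7 normalized CPM from 10 to 100 pg, and 99.7 at 5 ng. RPL23A had 525.2, 366.5, 366.9, 387.6 and 194.6, and 45.8 at 5 ng. Both lay below all their pg values at 5 ng. The smallest ratios were those of RPL21B (−0.38), RPL35A (−0.21), RPS7A (−0.13), RPL23C (0.07) and RPL8A (0.14). RPL21B had 1727, 1533, 1267, 1152 and 880.0, and 1149 at 5 ng. RPS7A (AT1G48830) had 457.6, 346.8, 350.9, 359.1 and 326.0, and 357.2 at 5 ng, and its share of the S7 family was 17.7% to 24.1% in the pg libraries and 48.8% at 5 ng. RPL35A (AT3G09500) had 863.4 at 100 pg and 996.2 at 5 ng, and RPL8A (AT2G18020), an embryo-essential gene, had 1242 at 100 pg and 1130 at 5 ng.

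Beside the members, the other cytosolic RP genes had medians of 0.93 in 10 pg over 100 pg and in 100 pg over 5 ng. Of the 149 compared, 72 were at least 2-fold higher in 10 pg over 100 pg, where 28.7% of all genes were. With library totals 31 were, where 19.7% of all genes were. The plastid RP genes, which serve the ribosomes of the chloroplast, had 0.65 in 10 pg over 100 pg, with PRPL11 highest (1.68) and PRPL1 lowest (−1.35), and 2.61 in 100 pg over 5 ng. Ribosome assembly genes had 0.08 and 3.04, with RID2 highest (1.96) and REIL1 lowest (−5.08) in 10 pg over 100 pg. Translation factors had −0.23 and 0.84, with eEF1Bb highest (2.64) and TIF3H1 lowest (−1.02). Regulators of growth and of RP genes around the TOR kinase had −0.03 and −0.34, with TOR itself highest (4.33) and its target kinase gene S6K1 lowest (−2.73). The 100 pg over 5 ng ratio was thus larger in the plastid RP and ribosome assembly lists than in the cytosolic RP genes, without a test of that difference.

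The genes whose levels followed the summed members most closely over the 6 libraries, by Pearson's correlation of log2(normalized CPM + 1), were ZFP8 (r = 0.9995), a zinc finger gene, then RPL24B, known as STV1 (0.9982), RPL27B (0.9971), AT3G09000 (0.9969) and RPL15B (0.9968). STV1 had 1317, 1184, 1099.9, 941.9 and 695.2 normalized CPM from 10 to 100 pg, and 427.6 at 5 ng. Of these 5 genes, 3 are cytosolic RP genes outside the 60. The points share libraries and depth, so this is a description only.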

How the data were processed

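The 6 libraries hold 1 per RNA amount. After trimming and removal of rRNA reads, the authors mapped the remainder to TAIR10 representative gene models with Bowtie2, and they deposited raw counts of read pairs and of single reads per gene, from which pairs matching several genes equally well had been left out. The deposited files also give the length of each gene model, used for levels per kb. TopHat2 is also named in the submitters' processing notes.

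Pair counts of all 6 libraries were scaled to CPM with TMM factors in edgeR 4.0.16 (R 4.3.3), and ratios were log2 of (normalized CPM + 1). Ratios were summarised over genes with at least 10 normalized CPM in either library, and a 2-fold difference was counted without a test. The slope used edgeR's quasi-likelihood test with 3 residual degrees of freedom, tested on simulated data, and DESeq2 1.42.0 as an alternative. Python 3.11.15 served for tables (pandas 2.3.3, NumPy 2.4.6), intervals (SciPy 1.17.1), coding sequence alignments (Biopython 1.88) and plots (matplotlib 3.10.9). The study's date correction was not repeated.

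The members and gene lists were chosen with earlier results of these data known, and the other lists were written from general knowledge. Genes were named by a fixed rule: the extremes of level and of the 10 pg, 25 pg and 5 ng ratios, the P stalk genes, and, in families with more than 1 member, minor paralogs under 10% and paralogs whose share moved by over 20 points, and the 5 genes most like the summed members. Upstream sequences and annotation are from RefSeq, TAIR10.1, in which all 60 members were matched. No protein sequences were used here.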

Additional observations from a re-analysis of the deposited data

How the results depend on the processing

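With 1 library per amount, no ratio has a replicate check. The fewest pairs of any member were 10 for RPP0A and 15 for RPSaB at 10 pg, and 24 for RPL3B at 5 ng. The parts of read depth and of RNA amount in these low counts were not tested. No paired analysis was possible because each amount has 1 library. With library totals in place of TMM factors the summed levels were 62738.5, 62506, 66089.5, 60697 and 50548 CPM from 10 to 100 pg and 7071 at 5 ng, and with DESeq2 size factors 26069.9 at 5 ng. With library totals the median ratios over 100 pg were 0.33, 0.30 and 0.42 for 10, 25 and 50 pg and that of 100 pg over 5 ng 2.97, with 4 members at least 2-fold higher for 10 pg (all genes 19.7%), 1 for 75 pg (10.7%) and 60 for 100 pg over 5 ng (71.4%), and 3 lower for 25 pg (26.1%). For 100 pg over 5 ng, DESeq2 size factors gave a median of 0.56 and 18 members at least 2-fold higher (31.1%), and totals without the storage protein genes 1.70 and 56 (50.7%). Against the mean of 50 and 75 pg, added after the data were seen, the medians were 0.34 for 10 pg and 0.10 for 25 pg (all genes 0.24 and 0.14), with 1 and 0 members at least 2-fold higher (25.6% and 17.8%). A pseudocount of 0.1 gave 1 member at least 2-fold lower for 25 pg over 100 pg (22.9%), and single reads gave 0 higher for 75 pg (10.2%). The slope called 20 members with DESeq2 (all genes 9.97%) and 8 with the 5 ng library (4.05%). Every fit that left out 1 library called 0 members and 0 of all genes. The median slopes of the members in these fits ran between −0.23 and −0.11. The spread had a median between 0.214, without 100 pg, and 0.378, without 75 pg. The number of families whose largest listed member was the same in all 6 libraries was 12 with single reads and with pairs. None of the alternatives turned the direction of the median over the 60 members, but library totals turned that over all genes to −0.19, −0.13 and −0.05 for 10, 25 and 50 pg, and DESeq2 size factors turned it to −0.06 for 100 pg over 5 ng.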
